A study of Saccharomyces cerevisiae with 12 samples.

Results

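The 10 histone genes of budding yeast described here were the rows of the deposited count table named HTA1, HTA2, HTB1, HTB2, HHT1, HHT2, HHF1, HHF2, HTZ1 and HHO1, out of 7126 features in all. All 10 passed the filter on low counts. Poly(A) RNA had been sequenced from 12 samples of haploid Saccharomyces cerevisiae, with 3 replicates in each of 4 groups. The series asked which expression changes under chronic KCl stress depend on the phosphatase calcineurin without its transcription factor Crz1.

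Both strains were MATa in the BY4741 background and carried his3delta1, ura3delta0, leu2delta0 and lys2delta0. Both also carried crz1delta::LEU2, a deletion of CRZ1, and a HYG-TEFp-GFP(Y66F) cassette in place of positions 181901 to 182001 of chromosome VI. The strain called crz1 had no further deletion. The strain called crz1cnb1 also carried cnb1delta::KanMx, a deletion of the gene for the regulatory subunit of calcineurin. Neither strain had Crz1, so no group stood for cells with intact calcineurin signalling. Cells were grown in synthetic medium with ammonium chloride as nitrogen source and sampled before KCl was given (0 h) or once they had spent 48 h in 400 mM KCl, diluted at 12 h intervals. No untreated cells were sampled at 48 h, so KCl and time in culture cannot be told apart. Whether the replicates were separate cultures is not stated in the labels, so each p-value reflects the spread among these samples, which may be technical.

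Histones H2A, H2B, H3 and H4 form the protein core around which nuclear DNA is wrapped in nucleosomes. In budding yeast each of these core histones is encoded by a pair of gene copies, arranged as divergent gene pairs: HTA1 with HTB1 and HTA2 with HTB2 for H2A and H2B, HHT1 with HHF1 and HHT2 with HHF2 for H3 and H4. Their mRNAs are made mainly in S phase, when DNA is replicated, and unlike most animal histone mRNAs they are polyadenylated, so they appear in poly(A) libraries. The activator Spt10 binds pairs of short elements in the divergent promoters, and the HIR complex represses all of these promoters except that of HTA2 and HTB2 outside S phase. HTZ1 encodes H2A.Z, a variant that replaces H2A in nucleosomes next to promoters, and HHO1 encodes the linker histone H1. In bulk RNA, a smaller share of cells in S phase and less histone mRNA per cell cannot be told apart.

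The promoter stretches are shown because all 8 core histone genes, and neither HTZ1 nor HHO1, had an upstream match to the paired Spt10 element. They are RefSeq sequence of the R64 build, and capitals mark each 16-base match, read on either strand.
HTA1-HTB1, chrIV:915069-915196, + strand: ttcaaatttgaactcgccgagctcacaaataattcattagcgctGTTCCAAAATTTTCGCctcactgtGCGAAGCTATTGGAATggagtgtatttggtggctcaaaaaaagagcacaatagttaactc
HTA2-HTB2, chrII:236064-236167, - strand: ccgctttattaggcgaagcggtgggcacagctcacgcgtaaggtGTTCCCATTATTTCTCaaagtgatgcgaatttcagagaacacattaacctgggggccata
HHT1-HHF1, chrII:255900-256003, - strand: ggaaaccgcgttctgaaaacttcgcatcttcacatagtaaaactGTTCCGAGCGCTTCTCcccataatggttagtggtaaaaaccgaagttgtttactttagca
HHT2-HHF2, chrXIV:576302-576405, - strand: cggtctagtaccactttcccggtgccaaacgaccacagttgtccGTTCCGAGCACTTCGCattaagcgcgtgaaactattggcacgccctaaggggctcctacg

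The pattern searched was GTTCCNNNNNNTTCNC or ATTCCNNNNNNTTCNC on both strands, where N is any base. It is known from studies of these same promoters, so a match in them is no independent finding. The 700 bases upstream of the coding start held a match for 8 of 8 core histone genes and for 87 of 5999 annotated genes (1.45%). Since partners of a divergent pair share their upstream DNA, the 8 windows covered 4 intergenic regions, which were 817 bases long for HTA1-HTB1, 699 for HTA2-HTB2, 646 for HHT1-HHF1 and 676 for HHT2-HHF2. The HTA1-HTB1 region held 2 matches and each of the others 1. The single match lay 316 bases from the coding start of HTA2 and 369 from that of HTB2, 260 from HHF1 and 372 from HHT1, and 296 from HHT2 and 366 from HHF2. The element CGCGAAA of the G1/S factor SBF was found upstream of 4 of the 8 core genes, those of the HTA1-HTB1 and HHT2-HHF2 pairs, and upstream of 6.85% of all genes. The element ACGCGT of the related factor MBF was found upstream of HTA2 and HTB2, 2 of the 8, and upstream of 6.98% of all genes.

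In the R64 annotation each histone gene is a single coding exon with no overlapping annotated gene. HTA1 (YDR225W) lies on chromosome IV at 915530 to 915928 on the + strand, and HTB1 (YDR224C) at 914317 to 914712 on the - strand. HTA2 (YBL003C) lies on chromosome II at 235394 to 235792 on the - strand, and HTB2 (YBL002W) at 236492 to 236887 on the + strand. HHT1 (YBR010W) lies on chromosome II at 256331 to 256741 on the + strand, and HHF1 (YBR009C) at 255373 to 255684 on the - strand. HHT2 (YNL031C) lies on chromosome XIV at 575640 to 576050 on the - strand, and HHF2 (YNL030W) at 576727 to 577038 on the + strand. HTZ1 (YOL012C) lies on chromosome XV at 303579 to 303983 and HHO1 (YPL127C) on chromosome XVI at 308828 to 309604, both on the - strand. HHF2 lies 2541 bases from CRZ1, the locus deleted in both strains, with KTR5 between them.

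The copies of a core histone can exchange reads where their coding sequences are identical. The first 90 coding bases are shown for the most alike copies, those of H4, and the least alike, those of H2B, with capitals at the bases that differ between the copies.
HHF1: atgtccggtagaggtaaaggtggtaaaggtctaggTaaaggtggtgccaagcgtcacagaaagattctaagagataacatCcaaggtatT
HHF2: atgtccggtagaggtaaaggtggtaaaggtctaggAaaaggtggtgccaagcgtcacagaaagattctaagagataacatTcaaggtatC
HTB1: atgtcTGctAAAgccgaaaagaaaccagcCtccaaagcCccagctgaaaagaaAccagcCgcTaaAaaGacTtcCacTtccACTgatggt
HTB2: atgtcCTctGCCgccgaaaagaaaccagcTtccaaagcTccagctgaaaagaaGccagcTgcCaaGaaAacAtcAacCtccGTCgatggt

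The H4 copies differed at 8 of 312 coding bases, with an identical run of up to 80 bases, and the H2B copies at 48 of 396, with a run of up to 35. The H2A copies differed at 25 of 399 bases and the H3 copies at 28 of 411. Of all stretches of 50 coding bases, 21.3% in HHF1 and HHF2, 12.2% in HHT1 and HHT2 and 4.57% in HTA1 and HTA2 occurred elsewhere in the genome, and none in HTB1, HTB2, HTZ1 or HHO1. How reads with several matches were counted is not given in the sources used here, so the division of H4, H3 and H2A counts between copies is uncertain.

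Library totals in the deposited count table were 21305485 to 21599279, and scaling factors (trimmed mean of M values, TMM) ran from 0.791 to 1.17. CNB1 had 1346 to 3139 counts in the libraries labelled crz1 and 14 to 68 in those labelled crz1cnb1, and CRZ1 had 3 to 19 in all 12. The MATa marker genes had 1217 to 34280 counts per library, while the markers of the opposite mating type had 3 to 16 for both alpha-factor genes, 16 to 220 for STE3 and 458 to 721 for SAG1. Under the tests described below STE3 fell in KCl in both strains, beside 0.571% of all features called in crz1 and 0.586% in crz1cnb1. BAR1, STE2 and STE6 in both and AGA2 in crz1cnb1 fell only in the fit with the replicate number as a block. That fit called 4.82% of all features in crz1 and 4.98% in crz1cnb1. In it STE3 was also higher in crz1 than in crz1cnb1 at 0 h, by a log2 difference of 1.01 ± 0.15 (edgeR adjusted p = 0.0429). For that comparison 0.0793% of all features were called. On the first principal component, with 33.7% of the variance, both KCl libraries numbered 2 lay on the side of the 0 h libraries.

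The core histone mRNAs were among the abundant messages of these cells, and those of H4 led. Mean levels over the 12 libraries, in TPM (the deposited unit of transcript abundance, which is per length and sums to the same total in each library), were 3753 ± 777 (SD, n = 12) for HHF2 and 2690 ± 684 for HHF1, the H4 genes. HHF2 ranked 40 among all features in the TPM table and HHO1 ranked 1750. The H3 genes followed with 2039 ± 260 TPM for HHT2 and 1414 ± 262 for HHT1. The H2A genes stood at 1673 ± 263 TPM for HTA2 and 1475 ± 130 for HTA1, and the H2B genes at 1380 ± 265 for HTB1 and 1096 ± 157 for HTB2. The variant HTZ1 had 223 ± 18.8 TPM and the linker HHO1 63.2 ± 22.6.

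**Figure D1:**
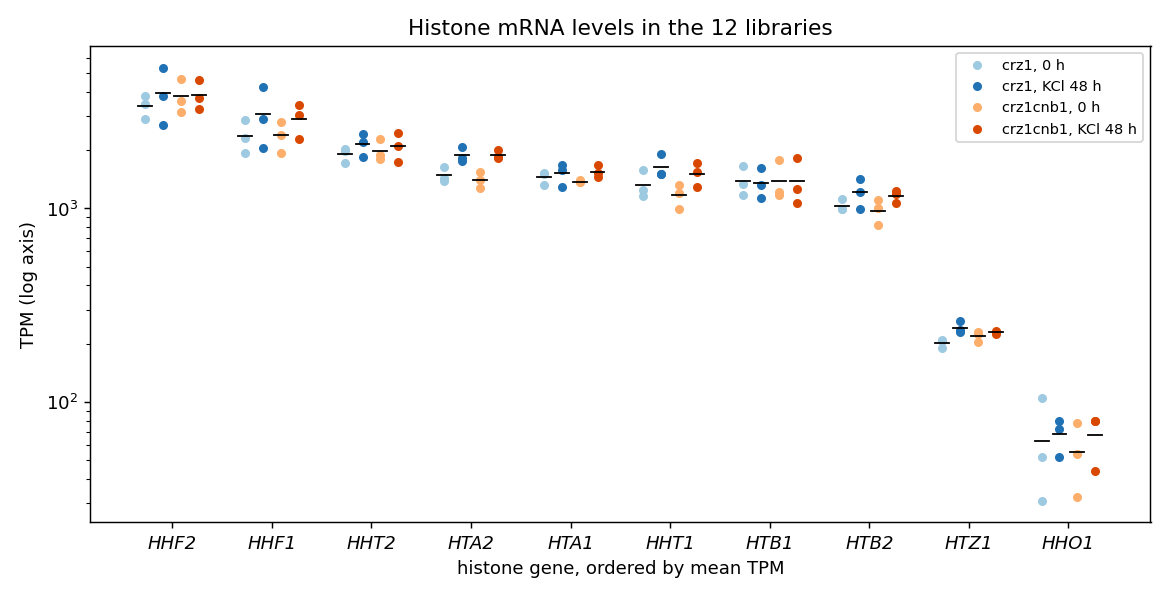
TPM on a log axis for the 10 histone genes, ordered by mean, with 1 point per library and a colour per group. The 8 core genes lie between 817 and 5356 TPM in every library, HTZ1 between 189 and 262, and HHO1 between 30.8 and 105.

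In TPM, HHF2 exceeded HHF1, HHF1 exceeded HHT2, HTB2 exceeded HTZ1 and HTZ1 exceeded HHO1 in 12 of 12 libraries. HHT2 exceeded HTA2 in 11, HTA2 exceeded HTA1 in 10 and HTB1 exceeded HTB2 in 10 of the 12. HTA1 exceeded HHT1 in 7 and HHT1 exceeded HTB1 in 6 of 12, so these neighbours in the order did not differ beyond their spread. The step from the core genes to H2A.Z was the clearest, with 4.01 to 5.44 times as much HTB2 as HTZ1 TPM in a library. Summed over both copies, the H4 level was a median of 1.77 times the H3 level (1.43 to 2.44 over the libraries), 1.98 times the H2A level and 2.44 times the H2B level. These ratios rest on annotated coding lengths, since counts divided by deposited TPM were proportional to that length for all 10 genes in a library.

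The question of the first comparison was how the histone genes differed between KCl and 0 h in the strain without Crz1 alone. No histone gene passed the test in crz1, and the differences were small. In the H2A gene HTA2, normalised counts (CPM, counts scaled to a common library size with TMM factors) in crz1 were 835, 616 and 794 at 0 h and 908, 866 and 934 in KCl. All 3 KCl libraries lay above all 3 libraries at 0 h, and the library numbered 2 at 0 h was the lowest. The means were 748 ± 117 and 903 ± 34.0 CPM (SD, n = 3), a log2 difference of 0.27 ± 0.17 (standard error) with a 95% interval of -0.10 to 0.64 and an adjusted p of 0.830 by edgeR's quasi-likelihood test with Benjamini-Hochberg adjustment. HTA2 was the only member whose groups did not overlap in crz1, and 6.53% of all tested features had every KCl library above every 0 h library there.

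The largest log2 difference in crz1 belonged to the H4 gene HHF1, at 0.31 ± 0.22, and rested on 1 library. Its CPM were 926, 964 and 866 at 0 h and 987, 1577 and 855 in KCl. The other H4 gene, HHF2, had 1381, 1271 and 1285 CPM at 0 h and 1299.5, 1980.5 and 1127 in KCl, with a log2 difference of 0.16 ± 0.22. The KCl library numbered 2 was the highest for both genes and the group ranges overlapped. Without that library the difference of HHF2 was -0.11 and its direction turned. HHF1 and HHF2 hold the largest share of sequence found elsewhere.

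Of the other genes in crz1, the H3 gene HHT1 had 834, 546 and 680.5 CPM at 0 h and 861, 734 and 820.3 in KCl, a log2 difference of 0.23 ± 0.18 with overlapping groups. The variant HTZ1 had 98.0, 89.6 and 121 CPM at 0 h and 101, 112 and 141 in KCl, a difference of 0.20 ± 0.19. Each KCl library of HHT1 and of HTZ1 was above the 0 h library with the same number. The remaining log2 differences were 0.16 ± 0.24 for HTB2, 0.11 ± 0.17 for HHT2, 0.11 ± 0.32 for HHO1, -0.01 ± 0.22 for HTA1 and -0.09 ± 0.20 for HTB1.

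Among the 10 members in crz1, 0 were called at an adjusted p under 0.05 and 0 had an unadjusted p under 0.05, against 0.571% of all tested features called by edgeR. DESeq2 and limma voom called 0 members as well. The differences were above 0 for 8 of 10 members, with a median of 0.16, beside 51.6% of all features above 0 and a median of 0.01. With library totals in place of TMM factors, 9 of 10 were above 0, HTA1 being the one that turned. Their median was then 0.25, beside 0.09 for all features. Without a block the 95% intervals of the members reached from -0.57 to 0.80, so folds from 0.674 to 1.74 lay within them. With the replicate number as a block they reached from -0.35 to 0.66, or folds of 0.783 to 1.58. Under that block 0 members and 4.82% of features were called. HTA2, HHT1 and HTZ1 then had unadjusted edgeR p values of 0.0200, 0.0482 and 0.0469, beside 20.9% of features under 0.05. The adjusted p of HTA2 by edgeR was 0.152.

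In crz1cnb1, which lacks calcineurin activity as well, no histone gene passed the test either. HTA2 had 815, 708 and 794 CPM at 0 h and 933, 843 and 1029 in KCl, or 772 ± 56.9 and 935 ± 93.3 (SD, n = 3). The groups did not overlap. The log2 difference was 0.28 ± 0.17 with a 95% interval of -0.10 to 0.65 and an adjusted p of 0.761 by edgeR. HHT1 had 718, 621 and 638 CPM at 0 h and 820.3, 732 and 734 in KCl, a log2 difference of 0.21 ± 0.18 and an adjusted p of 0.869 by edgeR. Its groups did not overlap in crz1cnb1, which makes 2 of 10 members there, beside 7.32% of all tested features. HTA2 alone was free of overlap in both strains, as were 197 features (3.12%) in all.

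The remaining values in crz1cnb1 lay on both sides of 0. HTB1, the H2B copy next to HTA1, had 639, 888 and 727 CPM at 0 h and 579, 836 and 585 in KCl, a log2 difference of -0.17 ± 0.20. Each of its KCl libraries was below the 0 h library of the same number, and the groups overlapped. HHF2 differed by -0.14 ± 0.22, HTZ1 by -0.10 ± 0.19 and HHT2 by -0.09 ± 0.17. All 3 of these signs turned when library totals replaced the TMM factors, which raised the median of all features by 0.16. The differences of HHO1, HHF1, HTB2 and HTA1 were 0.16 ± 0.32, 0.12 ± 0.22, 0.10 ± 0.24 and 0.02 ± 0.22.

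In crz1cnb1, 0 of 10 members were called, with 0 under an unadjusted p of 0.05, and edgeR called 0.586% of all features. DESeq2 and limma voom called 0 members. The median of the members was 0.06 with 6 of 10 above 0, beside 0.02 and 52.9% for all features. Under library totals 9 of 10 were above 0, with a median of 0.21 beside 0.18 for all features. Without a block the members' 95% intervals reached from -0.62 to 0.84, or folds of 0.652 to 1.79. The range was -0.54 to 0.55, or folds of 0.687 to 1.47, when the replicate number was a block. With the replicate number as a block 0 members and 4.98% of features were called. HTA2 then had an unadjusted p of 0.0221 and an adjusted p of 0.148, and 23.0% of all features had an unadjusted p under 0.05.

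**Figure D2:**
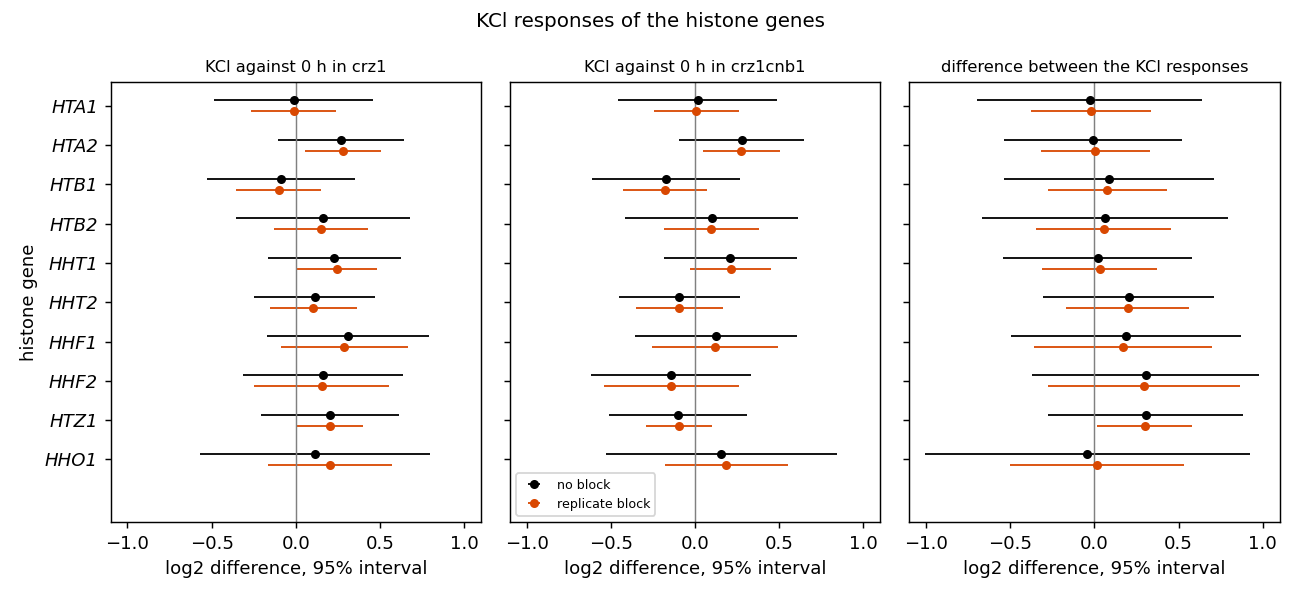
Log2 differences (points) with 95% intervals (lines) of the 10 histone genes for KCl against 0 h in crz1, in crz1cnb1, and for the difference between these responses, without a block (black) and with the replicate block (orange). Under the block HTA2 stands at 0.28 in crz1 and 0.27 in crz1cnb1, and every interval without the block includes 0.

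The difference between the responses, crz1 minus crz1cnb1, is the comparison that addresses calcineurin without Crz1. It was 0.31 ± 0.27 on the log2 scale for HTZ1 and 0.30 ± 0.31 for HHF2, the largest values. HTZ1 had 109, 115 and 145 CPM at 0 h and 109, 105 and 129 in KCl in crz1cnb1, where the groups overlapped. HTA2, the gene without overlap in both strains, had a difference of -0.01 ± 0.24 with a 95% interval of -0.53 to 0.52. No member was called by edgeR, DESeq2 or limma voom, 0 had an unadjusted p under 0.05, and 0% of all features were called with or without the block. With the block HTZ1 had an unadjusted edgeR p of 0.0391, which did not pass the adjustment, beside 1.08% of features under 0.05. A block set within each treatment gave HTZ1 an unadjusted edgeR p of 0.0156, beside 4.37% of features, and an adjusted p of 0.849. Without a block the members' intervals reached from -1.01 to 0.98, and a difference near a doubling lay within those of HHO1 and HHF2. With the block over all 4 groups the interval of HHO1 was -0.50 to 0.53 and that of HHF2 -0.28 to 0.86.

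Between the strains at 0 h, HHF2 had 1381, 1271 and 1285 CPM in crz1 and 1921, 1414 and 1543 in crz1cnb1. The groups did not overlap, and HHF2 was lower in crz1 by a log2 difference of -0.31 ± 0.22. This was 1 of 10 members with all crz1 libraries below all crz1cnb1 libraries, beside 1.62% of features. HTZ1 differed by -0.26 ± 0.19, with each crz1 library below its crz1cnb1 partner in number. At 0 h, 0 members were called by edgeR, DESeq2 or limma voom and 0 had an unadjusted p under 0.05, with 0.0159% of features called without the block and 0.0793% with it. HTZ1 had an unadjusted edgeR p of 0.0156 under the block, beside 3.69% of features under 0.05, and an adjusted p of 0.997. With the block set within each treatment, the unadjusted edgeR p was 0.00528 for HTZ1 and 0.0424 for HHT2, beside 10.8% of features under 0.05. The adjusted p of HTZ1 was then 0.243. The median of the members was -0.09 with 2 of 10 above 0, beside -0.01 and 47.9% for all features. Under library totals the members' median was 0.01 with 5 of 10 above 0, beside a median of 0.11 for all features.

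Between the strains in KCl, no histone gene passed the test either. The members' log2 differences, crz1 minus crz1cnb1, ran from -0.07 for HTA1 to 0.08 for HHT1, with a median of 0.00. HHF2, the gene apart at 0 h, had a difference of -0.01 ± 0.22 in KCl. Again 0 members were called by edgeR, DESeq2 or limma voom, with 0 under an unadjusted p of 0.05, and edgeR called 0.0476% of features without the block and 0.0634% with it.

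How the libraries are scaled bears on any statement about total histone mRNA. Summed TPM of the 8 core genes were higher in KCl than at 0 h in 6 of 6 same-numbered pairs, by 1.09 to 1.25 times. They went from 14815, 15379 and 12904 to 17057, 19294 and 14109.8 TPM in crz1, and from 15660.2, 15151.5 and 12736 to 17654, 17073 and 14395 in crz1cnb1. The libraries numbered 3 were the lowest in each group. With TMM scaling the same sums in CPM gave ratios of 0.978 to 1.37, of which 4 of 6 were above 1 and the largest belonged to the library pair numbered 2 in crz1. Library totals in place of TMM moved the median of all features by 0.08 in crz1 and 0.16 in crz1cnb1 on the log2 scale, and the direction of the total in single pairs thus depended on the scaling.

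The shares of the copies within each core histone do not depend on scaling, and they moved in 1 direction per histone. This pattern was noticed after the values had been seen and carries no test. HTA1 made up 48.3, 47.9 and 52.0% of the H2A TPM in crz1 at 0 h and 43.1, 41.3 and 48.8% in KCl. In crz1cnb1 its share was 47.5, 49.3 and 51.8% at 0 h and 41.8, 45.5 and 47.5% in KCl. The share was lower in KCl in 6 of 6 same-numbered pairs, and the groups overlapped in crz1 and were only just apart in crz1cnb1. Its divergent partner HTB1 made up 57.0 ± 5.62% of H2B at 0 h and 52.8 ± 8.86% in KCl in crz1 (SD, n = 3), and 58.5 ± 4.11% and 53.7 ± 7.17% in crz1cnb1. That share was lower in 6 of 6 pairs as well, although by less than 1 point in the crz1 pair numbered 2, and the groups overlapped in both strains.

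The first-named copies of H3 and H4 took a larger share in KCl. HHF1 made up 40.1, 43.1 and 40.3% of the H4 TPM in crz1 at 0 h and 43.2, 44.3 and 43.2% in KCl. In crz1cnb1 its share was 37.6, 40.1 and 38.1% at 0 h and 42.8, 45.0 and 41.0% in KCl. All KCl libraries lay above all 0 h libraries in both strains, by less than 1 point in each, and in crz1 the nearest libraries stood at 43.1 and 43.2%. Its divergent partner HHT1 made up 40.9 ± 3.35% of H3 at 0 h and 43.2 ± 4.44% in KCl in crz1, and 37.0 ± 3.64% and 42.0 ± 3.35% in crz1cnb1, with a higher share in 6 of 6 pairs, although by less than 1 point in the crz1 pair numbered 2, and overlapping groups. The copies that gained share in KCl, HTA2, HTB2, HHT1 and HHF1, are those of the pairs on chromosome II. Same-numbered libraries of the strains deviate together, so the 6 pairs are not 6 independent comparisons, and the division of reads between near-identical copies is uncertain. No background over other gene pairs is given for these counts, so how often such shares part between the groups was not tested.

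**Figure D3:**
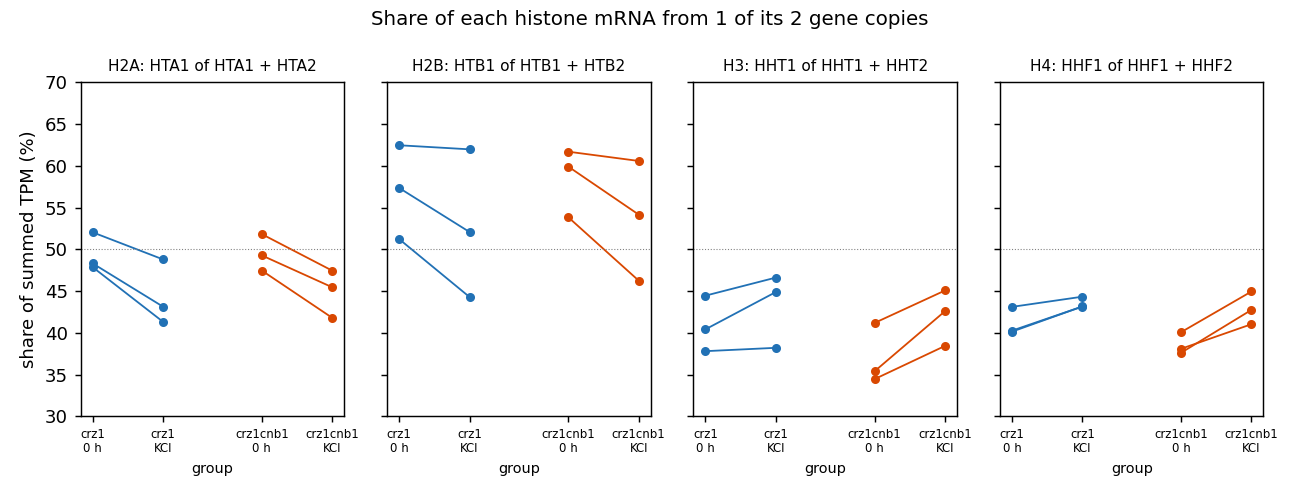
Share in percent of the summed TPM of each core histone that came from its first-named copy, with a line joining libraries of the same replicate number at 0 h and in KCl in each strain. The lines for HTA1 and HTB1 all run down and those for HHT1 and HHF1 all run up, while the libraries of a group spread as far as 44.3 to 62.0% for HTB1 in crz1 in KCl.

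Divergent partners did not vary most with each other. Over the 12 libraries, which include all 4 groups and share the scaling, Pearson's r of log2 CPM was 0.48 for HTA2 with HTB2, 0.38 for HHT2 with HHF2, 0.14 for HHT1 with HHF1 and -0.33 for HTA1 with HTB1. The gene most like HTA1 was HTB2 (r = 0.84), that most like HTA2 was HHT1 (0.82), and that most like HTB1 was HHT2 (0.73). The H4 copies HHF1 and HHF2 varied together (0.84), and so did HTZ1 with HTB2 (0.81). HHO1 was most like HHF1 (0.38) and ran against HTA1 (-0.84). For HHF1 and HHF2 the KCl library numbered 2 of crz1 was the highest of the 12.

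**Figure D4:**
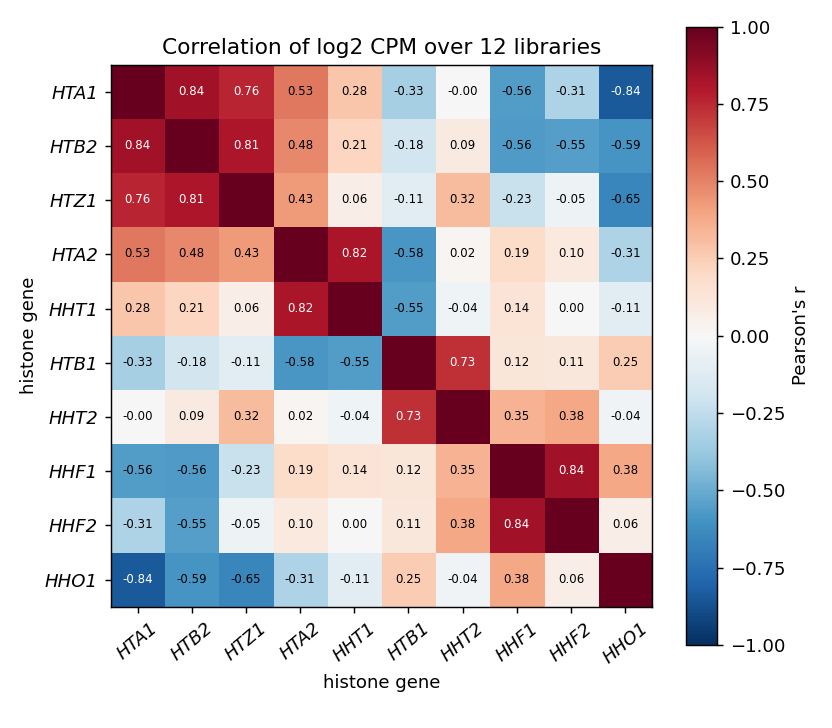
Pearson's r of log2 CPM over the 12 libraries for each pair of histone genes, on a colour scale. HTA1, HTB2 and HTZ1 form a block of values from 0.76 to 0.84, HHF1 and HHF2 stand at 0.84, and HTA1 with HHO1 is the lowest at -0.84.

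Several members had their extremes in libraries of the same replicate number in every group. HTA1, HTB2 and HTZ1 were highest in the library numbered 3 in all 4 groups, as were 19.7% of all tested features. HHO1 was lowest in the library numbered 3 in all 4 groups, as were 20.1% of features. Its CPM in the libraries numbered 1, 2 and 3 were 51.6, 87.5 and 34.2 in crz1 at 0 h and 67.4, 66.5 and 53.7 in KCl, and 55.2, 76.4 and 39.1 in crz1cnb1 at 0 h and 71.8, 71.5 and 47.1 in KCl. This range of 2.56 times between the lowest and the highest library was the widest of the 10 genes. HTB1 was highest in number 2 in all 4 groups (10.1% of features), HTA2 and HHT1 were lowest in number 2 (9.92%), and HHT1 was highest in number 1 (6.99%). HHF1, HHF2 and HHT2 had no replicate number that was highest or lowest in all 4 groups. What the replicate number stands for is not given in the labels, and its part in the correlations was not tested.

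**Figure D5:**
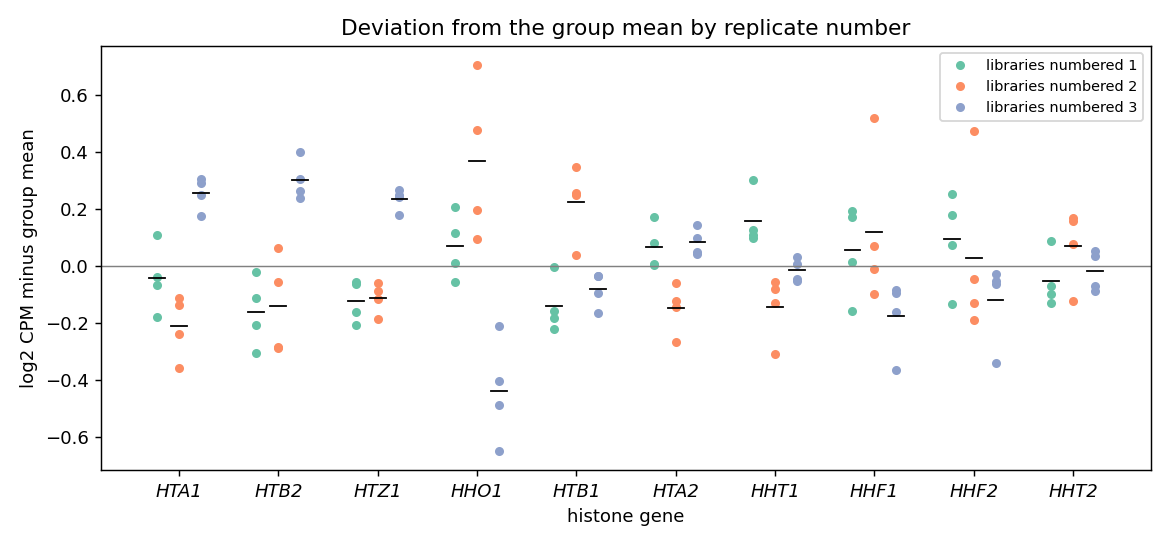
Log2 CPM minus the mean of its group for each histone gene, with 1 point per library, a colour per replicate number and a bar at the mean of 4 libraries. The libraries numbered 3 average 0.26 for HTA1, 0.30 for HTB2 and 0.23 for HTZ1, and -0.44 for HHO1.

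Log2 CPM of each gene was correlated with the centred mean of the 8 core genes over the 12 libraries. The genes named are extremes among the 6309 features tested, where high values can arise by chance, which was not tested. The core genes did not share 1 profile, with r from -0.58 (HTB1 with HTA2) to 0.84 (HTA1 with HTB2). Their centred mean ran only from -0.26 to 0.12, so likeness to it is not likeness to each core gene. The highest values were those of COG2, a subunit of a Golgi tethering complex (r = 0.88), RTC6, a mitochondrial ribosomal protein (0.85), CBC2, a subunit of the nuclear cap-binding complex (0.81), MET22, a bisphosphate nucleotidase (0.80), and VMA9, a subunit of the vacuolar proton pump (0.78). The lowest were those of NAB3, an RNA-binding protein of transcription termination (-0.84), AVT3, a vacuolar amino acid exporter (-0.83), and MRK1, a protein kinase (-0.81). Without the 2 libraries farthest from the median of the core mean, crz1 replicate 2 at 0 h and in KCl, r was 0.36 for COG2, 0.73 for RTC6, 0.07 for CBC2, 0.45 for MET22 and 0.63 for VMA9. It was then -0.37 for NAB3, -0.55 for AVT3 and -0.71 for MRK1. Every one of these values was thus weaker without those libraries, most of all for COG2, CBC2 and NAB3. MRK1 had a low level, with a mean of 3.78 CPM.

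Genes that control, carry or degrade histones were seldom called as well. Without the block edgeR called 0.571% of all features in crz1 and 0.586% in crz1cnb1. In lists of this size 0 calls lay near that share. Of 12 activators and repressors of histone transcription, 0 were called in either KCl response. The median difference was 0.01 in crz1, with 8 of 12 above 0, and 0.16 in crz1cnb1, with 11 of 12. Among all features 51.6% and 52.9% were above 0. SWI4, the DNA-binding subunit of SBF, differed by 0.32 ± 0.28 and 0.28 ± 0.28 in the strains, and SPT21, a partner of Spt10, by 0.15 ± 0.27 and 0.33 ± 0.27. Of 14 histone chaperones and assembly factors, 0 were called, with medians of -0.04 and 0.06. NAP1, a chaperone of H2A and H2B, differed by -0.43 ± 0.38 in crz1 and 0.24 ± 0.38 in crz1cnb1, SPT2, a chaperone of H3 and H4, by -0.25 ± 0.27 in crz1, and CAC2, a subunit of the assembly factor CAF-1, by 0.50 ± 0.29 in crz1cnb1.

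Of 10 genes for the turnover of histones and their mRNAs, 0 were called without the block, and the median was -0.00 in crz1 and -0.07 in crz1cnb1. With the replicate block 1 rose in crz1, UBC5, a ubiquitin-conjugating enzyme, by 0.54 ± 0.12 (edgeR adjusted p = 0.0270). This was 1 of 10 list members, beside 4.82% of all features called in crz1 under that block. In crz1cnb1 its value under the block was 0.31 ± 0.12 with an adjusted p of 0.153 by edgeR, and the difference between the strains' responses was not called. RAD53, a checkpoint kinase that also takes part in the breakdown of excess histones, differed by 0.51 ± 0.26 in crz1, and RRP6, a nuclear exosome ribonuclease, by -0.38 ± 0.29 in crz1cnb1.

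Of 26 genes of G1/S and DNA replication, 0 were called in either strain, with or without the block. Beside them, 0.571% of all features in crz1 and 0.586% in crz1cnb1 were called without the block. With it the shares were 4.82% and 4.98%. The median difference was 0.06 in crz1, where 18 of 26 were above 0, and 0.08 in crz1cnb1, where 19 were. Of all features 51.6% and 52.9% were above 0 in these comparisons. CSM3, a factor that stabilises replication forks, differed by 0.51 ± 0.23 in crz1 and 0.48 ± 0.23 in crz1cnb1, and CLN2, a G1 cyclin, by -0.45 ± 0.31 and -0.38 ± 0.31. CSE4, the centromeric H3 variant, differed by 0.11 ± 0.24 in crz1 and 0.30 ± 0.24 in crz1cnb1. No member of these histone-related and replication lists was called by edgeR in the difference between the responses or between the strains. In these comparisons at most 0.0793% of all features were called, with the replicate number as 1 block over all 4 groups or without it. The lists were not read in the fit with that block set within each treatment, which called 21 features at 0 h and 26 in KCl.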

How the data were processed

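Per the file headers, the authors deposited whole-number counts and TPM for each feature and library. FeatureCounts, DESeq2 and the build R64 appear in the submitters' processing notes without version or role. The aligner, the annotation release and the strand setting were not given in the sources used here.

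The counts were tested with edgeR 4.0.16 in R 4.3.3 (TMM, filterByExpr, 1 coefficient per group, robust quasi-likelihood fit over all 12 libraries), with Benjamini-Hochberg adjustment over the 6309 features tested. The common biological coefficient of variation was 0.223, and intervals of 95% use the degrees of freedom of each fit. Levels are CPM with TMM or deposited TPM, and log2 CPM carry a prior count of 2. Code was tested on simulated data. Libraries of the same group had a chi-squared of 78.0 to 250 per degree of freedom against each other, so each was counted as a separate sample.

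Same-numbered libraries deviated together (r of 0.309 to 0.827 in 18 pairs, against -0.732 to 0.317 in 36 pairs with unlike numbers), so the replicate numbers pair the samples. The labels give no source for this pairing. The fit reported first has no block.

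All 10 members are described. List genes named are those called in any comparison, plus at most 2 with the largest difference per list and KCl response. Genes named for likeness are the 5 most and 3 least correlated named genes. Members, lists and rules were chosen with earlier results of these data known. The alternatives were other scalings, no filter, DESeq2 1.42.0, limma 3.58.1 (voom on counts, trend on log2 TPM with a pseudocount of 1 or 0.1), blocks, compared libraries alone, and left-out libraries. Motifs and coordinates came from the RefSeq R64 genome.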

Additional observations from a re-analysis of the deposited data

How the results depend on the processing

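In each of the 5 comparisons 0 histone genes were called under every alternative run, the replicate block included (0 of 10 with the pairing). The sign changed in 142 of 1170 alternative values, over 33 of 50 gene results, whose main values were at most 0.19. In 3 results the change also exceeded 1 standard error, and their cause was not tested. HHF2 in KCl against 0 h in crz1 was -0.14 with all 4 libraries numbered 2 left out, and -0.11 to 0.32 leaving out 1 library at a time. HHF1 between the strains in KCl was -0.27 without the libraries numbered 2, and -0.27 to 0.21 leaving out 1 library. HHO1 between the strains at 0 h was -0.41 to 0.29 leaving out 1 library. Leaving out the libraries numbered 2 or numbered 3 was added after the data were seen. Counts over all features moved more. KCl called 36 features in crz1 and 304 with the block (9 to 304 over the alternatives, 12 to 60 without 1 library), and 37 and 314 in crz1cnb1 (10 to 314, and 9 to 54). The strains differed at 1 feature at 0 h (1 to 21) and 3 in KCl (1 to 26), and the responses at 0 in every fit. HHO1 had the fewest counts of the 10 genes, 626 to 2100 per library.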
